A study of Mus musculus with 2 samples.

Results

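Elastic fibres give skin its recoil, and the genes described here are the 10 that encode their core protein, their fibrillin microfibrils and the fibulins and microfibril-associated proteins that join the parts. The members were taken by gene symbol from the deposited gene tables, by a rule that used no measured value. Earlier results of these data were, however, known when the members were chosen. All 10 of 10 were found among the 17431 genes with at least 1 read. Each member passed the filter on low values (RPKM of 1 or more and 20 reads or more) in both libraries, so none entered through the library in which it was high. RPKM is the read number divided by gene length and by the counted reads of the library.

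The RNA came from 2 cultures of BALB/c mouse dermis, 1 sequenced library per cell type. Fibroblasts from mice at postnatal day 3 were grown in DMEM with 10% fetal bovine serum. Skin-derived precursors (SKPs), multipotent dermal cells selected by growth factors, came from mice at postnatal day 4 and were grown with 40 ng/ml FGF2, 20 ng/ml EGF and 2% B27. Cell type, medium, growth factors and age changed together and cannot be told apart. There were no replicates, so every fold below compares 2 libraries, has no replicate check and carries no test. Parentheses after a fold hold its 95% exact interval from the read counts. It covers counting error and nothing else, since PCR copies are not independent molecules.

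As background, an elastic fibre forms when tropoelastin, the product of Eln, is laid onto a scaffold of microfibrils built from fibrillins and is crosslinked by lysyl oxidases. The short fibulins, encoded by Fbln5, Efemp1 and Efemp2, bind tropoelastin and guide its deposition, and Efemp2 also binds lysyl oxidase. In skin, dermal fibroblasts make these proteins, and the microfibrils also hold latent TGF-beta.

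Sequencing gave 23374716 reads for fibroblasts and 22981183 for SKPs, of which 81.65% and 85.13% mapped to genes. A single read in a gene of 1 kb was worth 0.0543 RPKM in fibroblasts and 0.0528 in SKPs. All 8 fibroblast markers examined were expressed in both libraries, at a summed 10609 RPKM in fibroblasts and 10398 in SKPs. The markers split under these close sums: 3 (Col3a1, Dcn and Lum) were at least 2-fold higher in SKPs. In the other direction 2 (Col1a1 and Thy1) were at least 2-fold lower, and 3 were neither. Among the 12053 genes past the filter in either library, 12.1% were at least 2-fold higher in SKPs and 6.41% at least 2-fold lower. Of the 10874 past it in both, 809 were higher and 507 were lower. Marker and background calls alike needed an interval that excluded equality. All 8 SKP markers were expressed, 6 of them in both libraries, and Msx1 had 0 fibroblast reads. Of the 8, 3 were at least 2-fold higher in SKPs, 0 were at least 2-fold lower and 5 were neither. Among the 6 expressed in both, 1 was higher and the median log2 ratio of SKP over fibroblast was 0.14. Smooth muscle and pericyte markers (13 of 13 with a read) summed to 3251 RPKM in fibroblasts and 327 in SKPs. The fibroblast sum was led by Acta2, Tagln and Myl9. The SKP sum was led by Pdgfrb, at 206.6 RPKM in SKPs and 174.1 in fibroblasts. Of the 11 expressed, 6 were lower in SKPs and 3, Rgs5, Des and Notch3, were higher, with a median log2 ratio of -5.57. Of the 7 that passed the filter in both libraries, 3 were lower, 2 were higher and 2 were neither. Their median was 0.25. Cnn1, Myh11 and Lmod1 passed through the fibroblast library alone and Rgs5 through the SKP library alone. A difference was thus built into the selection of these genes. Keratinocyte (9 of 9), mast cell (8 of 8), leukocyte (9 of 9) and endothelial markers (8 of 8) each summed to at most 6.68 RPKM in fibroblasts. Their sums in the SKP library were 35.7, 83.2, 30.04 and 5.04 RPKM. At 0 reads in fibroblasts were the defining keratinocyte genes Krt1 and Ivl, the mast cell genes Cpa3, Fcer1a and Mcpt4, and the macrophage gene Emr1. In SKPs these had 13, 130, 330, 2, 191 and 13 reads. Of the 5 leukocyte markers past the filter, 4 were higher in SKPs and 1, Cd74, was lower (2.28 RPKM in fibroblasts, 0.664 in SKPs). The 2 past it in both libraries were higher. Of the 8 endothelial markers 1, Cdh5, passed it and was higher, while Vwf and Kdr had fewer reads in SKPs. Adipocyte markers (7 of 7) summed to 352 RPKM in fibroblasts and 533 in SKPs. Lpl, at 321 and 149.6 RPKM, made up most of the fibroblast sum, while 5 of the 7 were at least 2-fold higher in SKPs and the list's median log2 ratio was 6.82. Of the 3 that passed the filter in both libraries, 1 was higher and 1 was lower, and the median was 0.83. The others passed through the SKP library alone, so a difference was built into their selection. The part of these other cell types in the results below was not tested.

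The elastic fibre genes did not shift as a block. Of the 10 members, 4 (Eln, Efemp1, Mfap4 and Fbln1) exceeded their fibroblast level by 2-fold or more in SKPs, with an interval that excluded equality. In the other direction 2 members, Fbln5 and Fbn2, did so, and 4 (Fbn1, Fbln2, Efemp2 and Mfap5) met the rule on neither side. Across the 12053 genes past the filter in either library, 12.1% were higher, 6.41% were lower and 18.5% were one or the other by the same rule. The members' median log2 ratio of SKP over fibroblast was -0.14, against -0.01 over all those genes. Of the 10874 genes past the filter in both libraries, as all 10 members were, 809 were higher and 507 were lower. The median over these genes was -0.03. The same 2 backgrounds apply to the marker lists above and to the lists below. The members' ratios ran from -2.76 for Fbln5 to 6.06 for Eln on the log2 scale.

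**Figure D1:**
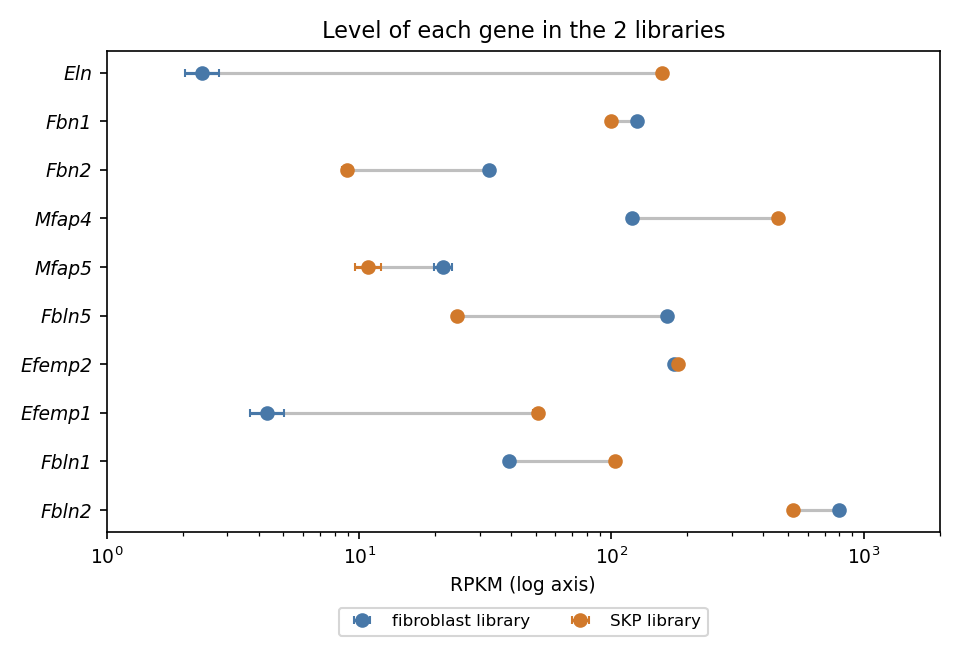
Level of each of the 10 genes in RPKM (log axis) in the fibroblast library (blue) and the SKP library (orange), 1 library each. Bars are 95% exact counting intervals and are mostly smaller than the points. Eln has the widest gap, at 2.39 RPKM in fibroblasts and 159 in SKPs, and the Efemp2 points, at 176 and 183, nearly coincide.

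Eln (gene ID 13717), which encodes the elastic core protein, stood at 2.39 RPKM in fibroblasts (166 reads) and 159 RPKM in SKPs (11373 reads). It was low in fibroblasts and high in SKPs, a 66.5-fold difference (57.1 to 78.04). In fibroblasts it ranked 9881st by RPKM among 16282 genes with a read, and in SKPs 372nd among 16727. Only 1.09% of the expressed genes had a higher SKP over fibroblast ratio. In bulk RNA, fewer cells that make a transcript and less of it per cell cannot be told apart.

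The microfibril backbone was held by Fbn1 in both libraries. Fbn1 (14118), the main fibrillin of postnatal tissue, stood at 126 RPKM in fibroblasts (22945 reads) and 99.8 in SKPs (18726 reads), 1.26-fold higher in fibroblasts (1.24 to 1.29). Fbn2 (14119), the fibrillin most prominent in development, stood at 32.8 RPKM in fibroblasts (6320 reads) and 8.92 in SKPs (1772 reads). It was 3.67-fold higher in fibroblasts (3.48 to 3.87), and only 2.18% of the expressed genes had a lower ratio. The fibrillins therefore lay on the same side but by different amounts. Within a library Fbn1 exceeded Fbn2 by 3.84-fold in fibroblasts and by 11.2-fold in SKPs on the RPKM scale. That is a 2.91-fold change in their ratio (2.75 to 3.08, an approximate counting interval from the 4 read counts).

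The microfibril-associated genes went opposite ways. Mfap4 (76293), a glycoprotein that binds fibrillin and elastin, stood at 121 RPKM in fibroblasts (3358 reads) and 458 in SKPs (13135 reads), 3.80-fold higher in SKPs (3.66 to 3.95). It moved from rank 525 to rank 114 among all genes by RPKM. Mfap5 (50530), which encodes a small fibrillin-binding glycoprotein also known as MAGP-2, stood at 21.5 RPKM in fibroblasts (559 reads) and 10.8 in SKPs (290 reads). It was 1.98-fold higher in fibroblasts, just under the 2-fold limit, and its interval (1.72 to 2.29) spanned that limit. With upper quartile scaling it passed the limit, at -1.04 on the log2 scale, and with totals that left out the 10 most abundant genes of either library it did so at -1.001. Mfap4 exceeded Mfap5 by 5.61-fold in fibroblasts and 42.3-fold in SKPs. These closely named genes are not members of one protein family.

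The short fibulins showed the sharpest contrast among related members. Fbln5 (23876), whose product tethers tropoelastin to microfibrils and cells, stood at 165 RPKM in fibroblasts (17926 reads) and 24.4 in SKPs (2720 reads), 6.78-fold higher in fibroblasts (6.52 to 7.07). Only 1.11% of the expressed genes had a lower ratio. Efemp1 (216616), which encodes fibulin-3, was the reverse, at 4.32 RPKM in fibroblasts (162 reads) and 51.1 in SKPs (1971 reads). It was 11.8-fold higher in SKPs (10.06 to 13.96), and 2.82% of the expressed genes had a higher ratio. Efemp2 (58859), which encodes fibulin-4, stood at 176 RPKM in fibroblasts (5852 reads) and 183 in SKPs (6252 reads), a 1.04-fold difference (1.001 to 1.08).

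Fbln5 was thus high in fibroblasts, Efemp1 in SKPs, and Efemp2 was near the same level in both. Fbln5 exceeded Efemp1 by 38.2-fold in fibroblasts, whereas Efemp1 exceeded Fbln5 by 2.10-fold in SKPs, an 80.2-fold change in their ratio (67.97 to 94.6). The ratio of Eln to Fbln5 changed by 452-fold (385 to 529), from 69.3-fold more Fbln5 in fibroblasts to 6.52-fold more Eln in SKPs. The intervals of these 2 changes are approximate, like that of the fibrillin pair.

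The promoter windows of Efemp1 and Fbln5 are shown because these related genes differed most in opposite directions. They are the 250 bases before each transcription start in RefSeq on GRCm38.p6, which is not the build of the deposited tables. They are written 5′ to 3′ in the gene's direction, and Fbln5 has 2 starts there. Capitals mark matches to the motifs searched on both strands. These were GGGCGG for Sp1, the CCAAT box, the TATA box as TATAAA, the E-box as CACGTG and the CArG box of serum response factor. Also searched was TGANTCA, with N any base, which is a looser pattern than the AP-1 consensus site.
Efemp1, chr11:28852955-28853204, plus strand: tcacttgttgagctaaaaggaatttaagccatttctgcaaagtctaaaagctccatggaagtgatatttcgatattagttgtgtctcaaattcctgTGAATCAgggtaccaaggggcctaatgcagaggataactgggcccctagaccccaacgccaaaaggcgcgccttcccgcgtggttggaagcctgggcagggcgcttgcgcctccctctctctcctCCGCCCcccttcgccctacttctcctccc
Fbln5, start 1, chr12:101819120-101819369, minus strand: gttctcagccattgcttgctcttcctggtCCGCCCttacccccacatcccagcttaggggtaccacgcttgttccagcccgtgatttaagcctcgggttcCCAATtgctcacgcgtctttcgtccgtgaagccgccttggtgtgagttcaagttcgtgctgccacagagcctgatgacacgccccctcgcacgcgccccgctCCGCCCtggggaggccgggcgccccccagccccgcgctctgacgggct
Fbln5, start 2, chr12:101818485-101818734, minus strand: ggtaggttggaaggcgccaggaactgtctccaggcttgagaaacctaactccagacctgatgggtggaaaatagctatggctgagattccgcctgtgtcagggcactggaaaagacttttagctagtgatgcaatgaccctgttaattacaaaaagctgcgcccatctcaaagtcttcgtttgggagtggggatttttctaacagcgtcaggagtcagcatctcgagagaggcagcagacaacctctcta

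The Efemp1 window held 1 match to TGANTCA and 1 to GGGCGG. The first Fbln5 window held 1 match to CCAAT and 2 to GGGCGG, and the second held none of the 6 motifs. Bases 21 to 50 after the first Fbln5 start occurred in 0 Fbln5 transcripts of the GENCODE M21 annotation. Those after the second Fbln5 start and after the Efemp1 start occurred in 1 transcript of their gene each. No matches overlapped. Among 32817 windows of the same length, 32.7% held GGGCGG, 33.8% CCAAT, 12.4% TATAAA, 6.75% TGANTCA, 6.02% CACGTG and 1.47% a CArG box. A match describes the letters in the window and says nothing of binding. The G and C share was 53.6% for Efemp1 and 65.2% and 49.6% for the Fbln5 starts. Of the 10 members 6 had a promoter in the table, and Eln, Fbn2, Mfap4 and Mfap5 had none.

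The long fibulins also differed from each other. Fbln1 (14114), which binds fibronectin and the elastic core, stood at 39.4 RPKM in fibroblasts (2437 reads) and 103 in SKPs (6568 reads), 2.62-fold higher in SKPs (2.499 to 2.74). Fbln2 (14115), which is found where microfibrils meet the elastic core and in basement membranes, stood at 797 RPKM in fibroblasts (65659 reads) and 524 in SKPs (44478 reads). It was 1.52-fold higher in fibroblasts (1.502 to 1.54), under the 2-fold limit. Fbln2 exceeded Fbln1 by 20.2-fold in fibroblasts and by 5.08-fold in SKPs.

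**Figure D2:**
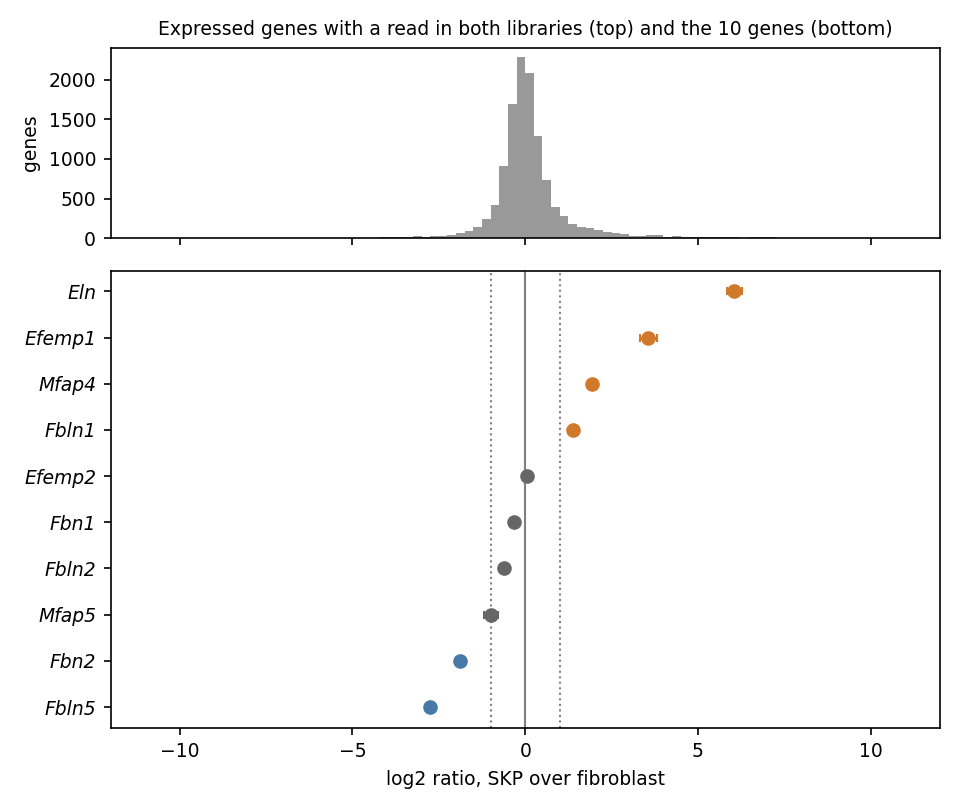
Log2 ratio of SKP over fibroblast for the expressed genes with a read in both libraries (top, number of genes per bin) and for each of the 10 genes (bottom, with 95% exact counting intervals). Dotted lines mark 2-fold; orange is at least 2-fold higher in SKPs, blue at least 2-fold lower, grey neither. Eln lies at 6.06 and Fbln5 at -2.76, and Mfap5 sits on the lower 2-fold line at -0.99.

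Summed over the 10 genes the level was close in the libraries, at 1485 RPKM in fibroblasts and 1622 in SKPs, while its make-up differed. Fbln2 was the most abundant member in both and took 53.6% of the summed RPKM in fibroblasts and 32.3% in SKPs. Mfap4 took 8.12% in fibroblasts and 28.2% in SKPs, and Eln 0.161% and 9.78%. Fbln5 took 11.1% in fibroblasts and 1.501% in SKPs, whereas Efemp2 held 11.9% and 11.3%. Without Fbln2 the sums were 689 RPKM in fibroblasts and 1098 in SKPs.

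The order of levels in fibroblasts was Fbln2, Efemp2, Fbln5, Fbn1, Mfap4, Fbln1, Fbn2, Mfap5, Efemp1 and Eln. In SKPs it was Fbln2, Mfap4, Efemp2, Eln, Fbln1, Fbn1, Efemp1, Fbln5, Mfap5 and Fbn2. Counting intervals of neighbours overlapped only for Fbn1 and Mfap4 in fibroblasts and for Fbln1 and Fbn1 in SKPs. Eln moved from the lowest place to the 4th, and Fbn2 from the 7th to the lowest.

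**Figure D3:**
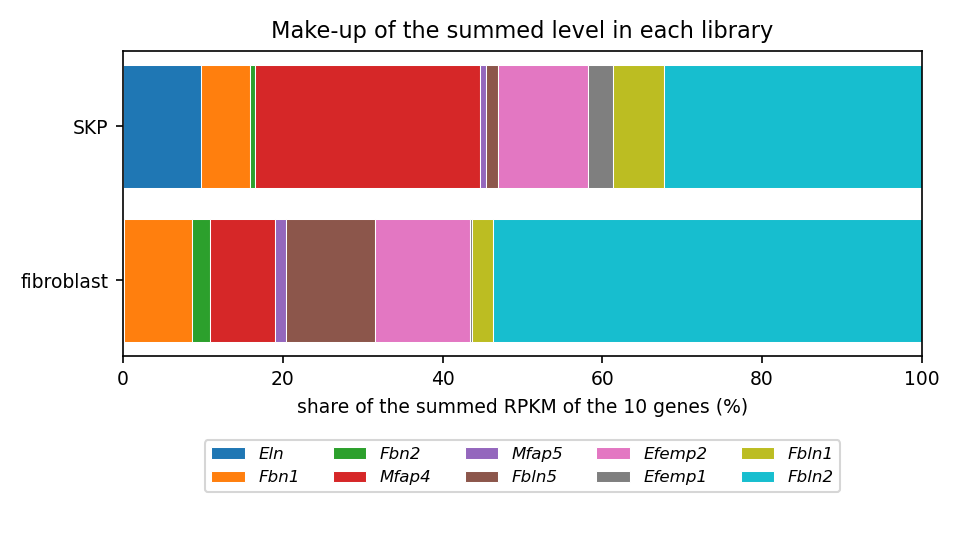
Share of the summed RPKM of the 10 genes taken by each gene (percent, bars from 0 to 100) in the SKP and the fibroblast library. Fbln2 fills 53.6% of the fibroblast bar and 32.3% of the SKP bar, and the Mfap4 and Eln segments are wider in the SKP bar.

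The deposited tables also give the share of each gene's length that lay under reads. For 7 members (Fbn1, Fbn2, Fbln2, Efemp1, Efemp2, Mfap4 and Mfap5) it was at least 93.4% in both libraries. Eln was covered over 58.95% of 3781 bases in fibroblasts and 98.7% in SKPs. Fbln1 was covered over 80.9% in fibroblasts and 85.03% in SKPs, although it had 2437 and 6568 reads.

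Fbln5 had the lowest coverage of the members in SKPs. Its length in the tables is 5893 bases, of which 81.5% lay under reads in fibroblasts and 53.2% in SKPs. Genes within 1.5-fold of its reads per kilobase had a median coverage of 97.99% in fibroblasts (349 genes) and 96.5% in SKPs (2363 genes). Its coverage ranked at percentile 5.16 and 0.804 among them. The GENCODE M21 annotation holds Fbln5 transcripts of 1794, 2371 and 5829 bases, and the covered part amounted to 4803 bases in fibroblasts and 3135 in SKPs. Divided by the covered share, the RPKM of Fbln5 was 203 in fibroblasts and 45.8 in SKPs. On that scale it stood above Efemp2 in fibroblasts, at 179, the reverse of their order by RPKM. Which transcripts the reads came from was not tested.

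**Figure D4:**
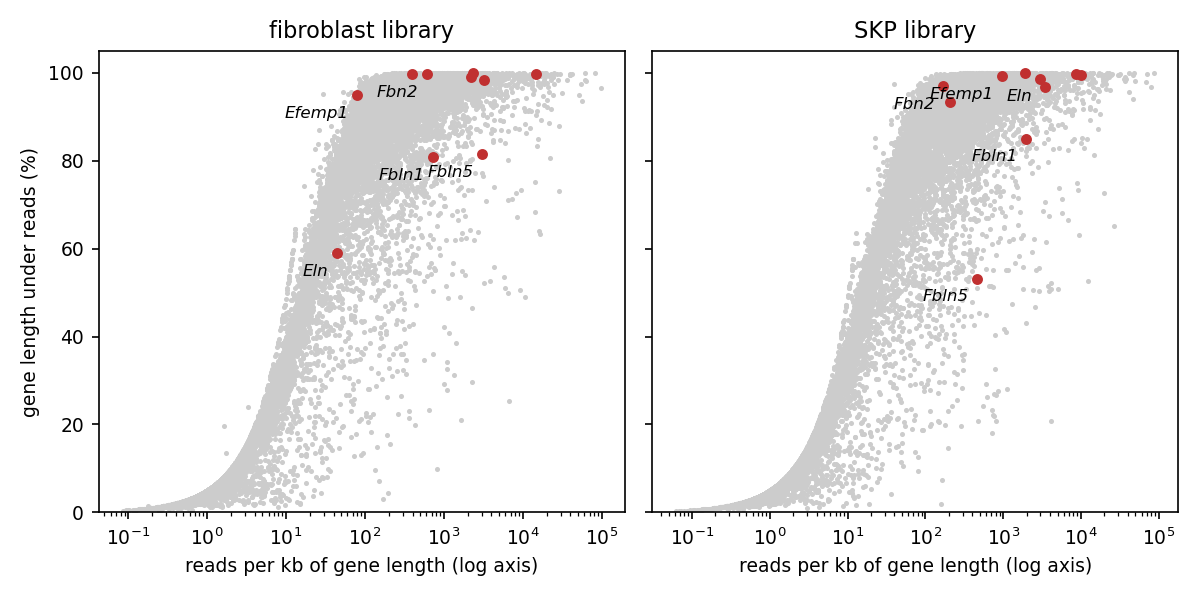
Share of the gene length under reads (percent) against reads per kilobase of gene length (log axis) in the fibroblast library (left) and the SKP library (right). Grey points are all genes with a read and red points the 10 genes, some of them named. Fbln5 lies below most genes of its depth, at 81.5% and 53.2%, and Eln moves from 58.95% to 98.7%.

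Exact stretches as long as a read were not shared between members. In the longest coding transcript of each member in GENCODE M21, 0 words of 49 bases, the read length, occurred in another member. For 5 members (Fbln1, Fbln2, Fbln5, Efemp1 and Mfap5) 0 such words occurred in any other gene. For Fbn1, 20.1% of the words lay in an overlapping gene on the opposite strand, Gm9913. For Efemp2 4.83%, for Eln 2.82%, for Mfap4 2.45% and for Fbn2 0.737% did so, in Mus81, Gm30003, Mapk7 and Gm26507. The sources used here do not say whether the counting used strand, so reads of these pairs could not be told apart. Mus81 had 485 reads in fibroblasts and 430 in SKPs, and Mapk7 had 974 and 1087, fewer than Efemp2 and Mfap4 in each library.

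Among 6 genes of elastin and collagen crosslinking, 0 met the rule in favour of SKPs and 3 in favour of fibroblasts, with a median log2 ratio of -0.67. All 6 passed the filter in both libraries. Lox, the lysyl oxidase that crosslinks tropoelastin, stood at 539 RPKM in fibroblasts and 61.6 in SKPs and was 8.74-fold higher in fibroblasts (8.47 to 9.03). Loxl3 (2.86-fold, 2.69 to 3.03) and Loxl4 (2.22-fold, 2.05 to 2.42) lay on the same side. Loxl1, which acts with Fbln5 in elastic fibre upkeep, was at 213 RPKM in fibroblasts and 207 in SKPs. Atp7a, the copper transporter that loads lysyl oxidases, was at 5.46 RPKM in fibroblasts and 10.8 in SKPs, 1.97-fold apart. Lox, the enzyme that Efemp2 binds, was thus lower in the library in which Eln was higher, while Efemp2 itself differed by 1.04-fold.

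Of 26 listed microfibril partners and binding proteins 25 had a read and 22 passed the filter, 16 of them in both libraries. Of the 22, 9 were higher in SKPs and 1 was lower, and the median was 0.73. Of the 16 that passed in both, 3 were higher and 1 was lower, and the median was 0.17. The 3 were Mfap2, which encodes the fibrillin-binding MAGP-1 (333.6 RPKM in SKPs against 70.8, 4.71-fold), Emilin1, a glycoprotein of the elastic core surface (2.29-fold), and the small proteoglycan gene Dcn. Dcn, also on the fibroblast marker list, stood at 2007 RPKM in SKPs and 291 in fibroblasts (6.89-fold, 6.75 to 7.04). The 1 lower gene was Adamts6, a metalloprotease gene, at 1.21 RPKM in SKPs and 3.46 in fibroblasts.

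The partners with the largest ratios passed the filter through the SKP library alone, so a difference was built into their selection. Fbln7, another fibulin, had 238 SKP reads and 1 fibroblast read, a ratio of 231 (41.1 to 9169). Emilin3 had 192 and 1 (186, 33.1 to 7404), and Adamts17 had 159 and 5 (30.9, 12.96 to 96.4). Thsd4, which encodes a protein that promotes fibrillin microfibril assembly, had 1067 and 42 reads (24.7-fold, 18.1 to 34.4). Bgn, the most abundant partner, was at 3373 RPKM in fibroblasts and 2545 in SKPs, 1.33-fold apart.

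Of the 7 latent TGF-beta binding proteins and TGF-beta ligands, all past the filter in both libraries, 4 were higher in SKPs and 1 was lower, and the median was 1.202. Ltbp3 was 3.94-fold higher in SKPs (3.74 to 4.14), at 78.5 RPKM against 19.9. Ltbp4, whose product takes part in elastic fibre assembly with Fbln5, was 2.81-fold higher (2.54 to 3.11), and Ltbp2 2.63-fold (2.49 to 2.77). Of the ligands, Tgfb1 was 2.30-fold higher in SKPs, at 174 RPKM against 75.6. Tgfb3 was 3.80-fold higher in fibroblasts (3.54 to 4.08), at 58.4 RPKM against 15.4. Ltbp4 and Fbln5, which act together, thus differed in opposite directions.

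Proteases that cut elastin, or activate those that do, were higher in SKPs, among them Mmp9, Mmp2 and Ctsl, which passed the filter in both libraries. Of 13 listed proteases and inhibitors 12 had a read and 10 passed the filter, with 8 higher in SKPs, 1 lower, 1 neither and a median of 1.89. Of the 8 that passed in both libraries, 6 were higher and 1 was lower, and the median was 1.52. All 7 proteases past the filter were higher, but Mmp12 and Ctss passed through the SKP library alone, so a difference was built into their selection. Mmp9 was 133-fold higher (111 to 161) and Mmp2 4.30-fold, at 1215 RPKM against 283. The lysosomal protease gene Ctsl was 4.81-fold higher, at 1063 RPKM against 221. Mmp12, the macrophage elastase gene, had 545 SKP reads and 17 fibroblast reads (31.1-fold), and Ctss, also on the leukocyte marker list, 93 and 3 (30.1-fold, 9.99 to 149). Leukocyte markers summed to 30.04 RPKM in that library and 6.68 in fibroblasts, and their part in these values was not tested. Of the 3 protease inhibitors, Timp2 was 2.13-fold higher in SKPs, Timp3 2.03-fold higher in fibroblasts, and Timp1 1.90-fold apart.

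Of 11 receptor genes, which hold the elastin receptor complex and the integrins that bind fibrillins and fibulins, 9 passed the filter, all in both libraries. In SKPs 3 were higher and 0 were lower, and the median was 0.56. Itga8 was 5.61-fold higher (5.12 to 6.15), Itgb3 4.37-fold (4.04 to 4.73) and Itgav 2.21-fold (2.13 to 2.29). Itgb1, the common beta chain, was at 306 RPKM in fibroblasts and 199.6 in SKPs. Ctsa, a subunit of the elastin receptor complex, was at 174 and 149 RPKM.

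**Figure D5:**
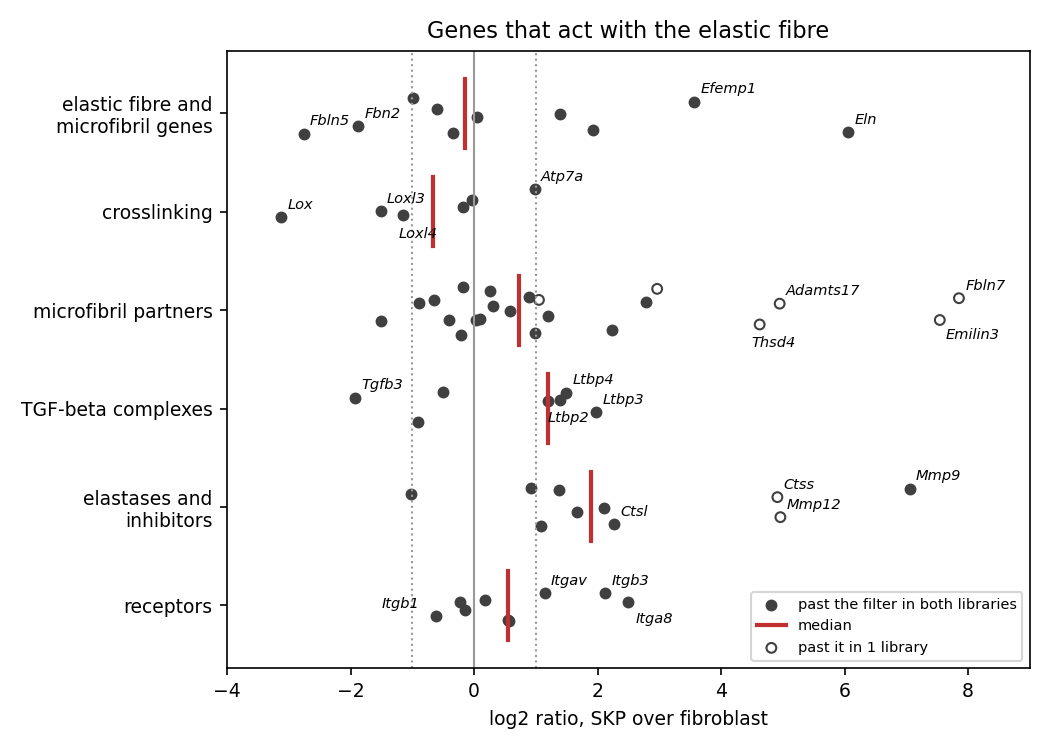
Log2 ratio of SKP over fibroblast for the 10 genes and for the genes of 5 lists that act with the elastic fibre; each point is a gene past the filter, filled where it passed in both libraries and open where it passed in 1. Red lines are list medians, which run from -0.67 for crosslinking to 1.89 for elastases and inhibitors, and dotted lines mark 2-fold.

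In the authors' deposited table the log2 ratios of all 10 members, written there as fibroblast over SKP, equalled those used here with the sign reversed. The same calls followed from that and are no separate check. The authors' FDR was written as 0 for 7 of the members, and was 2.55e-122 for Fbn1, 1.51e-21 for Mfap5 and 0.0734 for Efemp2. With 1 library on each side, those values in the authors' deposited table compare the reads of the libraries and not the cell types.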

How the data were processed

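Poly(A) RNA was sequenced in 1 fibroblast and 1 SKP library, grouped by the labelled cell type. The deposited counts are whole reads per gene, per the file headers, and the deposited RPKM equals these counts scaled by gene length and library total. The deposited percent values are the part of a gene's length that reads covered and, in the mapping tables, shares of total reads. The authors' table holds a log2 ratio and a p-value with its FDR, from a test that is not named. Build mm9 is given, per the submitters' processing notes. For the aligner, annotation and strandedness the sources used here give nothing. The counted reads exceed those with a single match by 3924587 and 4370357, although the header calls them unique, so how reads with several matches were counted is unknown.

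Ratios with 95% Clopper-Pearson limits were computed with scipy 1.17.1, numpy 2.4.6 and pandas 2.3.3 (Python 3.11.15), plotted with matplotlib 3.10.9 and checked on simulated data. A gene counted as higher or lower when its fold was 2 or more and its interval excluded equality. With 1 library per cell type no test was possible. All 10 members are named, and from each of 5 lists the 4 past the filter with the most extreme ratio and the 2 most abundant. Genes named to make up a count of 5 or fewer were picked with their values in view, as were the pairs of genes set against each other. The members and lists were chosen with earlier results of these data known. The listed genes Hmcn2 and Serpina1a had no read. Of the marker lists, 1 is not reported here. Scaling, pseudocount, filter, fold limit and the source of the ratio were varied. Words and overlaps came from GENCODE M21 (GRCm38).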

Additional observations from a re-analysis of the deposited data

How the results depend on the processing

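Under 7 other choices of scaling, pseudocount, filter and source of the ratio, none of the 10 members changed the sign of its ratio. In 68 of 70 pairs of a member and a choice the call was kept, and the exceptions were both Mfap5. The filter changes and the authors' ratio left every member's value as it was. Only the scalings and the pseudocount could therefore alter a call. The scalings moved all ratios by at most 0.05 on the log2 scale. With upper quartile scaling the members' median was -0.19, the median of the elastases and inhibitors 1.84 and that of the receptors 0.51. At a 1.5-fold limit 4 members were lower in SKPs, and at a 4-fold limit 2 were higher and 1 was lower. On the log2(RPKM + 1) scale the median was 0.52 for the microfibril partners and 1.85 for the elastases. Without a filter the elastase median was 2.18 and 2 microfibril partners were lower. At RPKM 5 or more the microfibril partners counted 5 higher and 0 lower, their median was 0.44, and the medians were 1.298 for the TGF-beta complexes and 1.67 for the elastases. Changes with the filter follow from the genes it admits. The moves with upper quartile scaling follow from its shift of -0.05 in every log2 ratio. Those on the log2(RPKM + 1) scale follow from the added 1, and those with the fold limit from the limit itself. No paired analysis was possible because each cell type had 1 library, and leaving out a library was not possible either. Eln and Efemp1 rest on 166 and 162 fibroblast reads, which sets the width of their intervals.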
